A study of Mus musculus with 6 samples.

Results

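Mt1 and Mt2 encode metallothioneins, small cysteine-rich proteins that bind zinc and copper and take up toxic metals such as cadmium. All probe sets annotated with Mt1 or Mt2 as their only gene symbol were taken, which gave 1 probe set for each gene among 12422 probe sets, of which 10833 had 1 symbol and together stood for 8251 genes. The rule itself used no measured value, but the genes were chosen with earlier results of these data known. Both probe sets were bright enough to be tested. The cells were mIMCD3, mouse epithelial cells derived from the innermost part of the kidney's collecting duct, exposed for 1 h to aldosterone or to vehicle. Each of 3 runs of the experiment gave 1 aldosterone and 1 vehicle array, so each group held 3 arrays. The line carries no labelled genetic change, and the hormone dose is not given in the sources used here. A single immortalised line stands in for the duct, and nothing in the labels says that the runs used separate cultures, so a p-value here refers to variation among these samples, which may be technical.

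In mouse cells, a rise in free zinc activates MTF-1, a zinc finger transcription factor that binds metal response elements in the Mt1 and Mt2 promoters. Glucocorticoids also induce both genes, through steroid response elements that lie upstream of Mt2. Aldosterone acts through the mineralocorticoid receptor, which can bind the same kind of element, and so the pair can be asked whether it moved within the first hour of the hormone. The related gene Mt3 is best known from brain and Mt4 from stratified epithelium.

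The windows around the annotated starts of Mt1 and Mt2 are shown because metals act on these genes through short elements near their starts. They come from RefSeq on build GRCm38.p6, are on the plus strand and read 5′ to 3′. RefSeq places Mt4, Mt3, Mt2 and Mt1 next to each other in this order on chromosome 8. Capitals mark matches to the core of the metal response element (TGCACNC or TGCGCNC, either strand) and, in Mt1, a match to a relaxed glucocorticoid response element (GNACANNNTGTNC, which reads alike on both strands). The 250 bases before the start are at chr8:94178839-94179088 for Mt1 and chr8:94172368-94172617 for Mt2, and the first 30 bases after it are at chr8:94179089-94179118 and chr8:94172618-94172647.
Mt1 before the start: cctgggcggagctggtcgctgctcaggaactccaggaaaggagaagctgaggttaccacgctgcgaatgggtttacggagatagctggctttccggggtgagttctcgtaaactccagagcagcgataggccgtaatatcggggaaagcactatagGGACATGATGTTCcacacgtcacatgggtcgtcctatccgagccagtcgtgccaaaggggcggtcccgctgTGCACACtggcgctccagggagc
Mt1 after the start: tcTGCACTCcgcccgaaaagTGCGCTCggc
Mt2 before the start: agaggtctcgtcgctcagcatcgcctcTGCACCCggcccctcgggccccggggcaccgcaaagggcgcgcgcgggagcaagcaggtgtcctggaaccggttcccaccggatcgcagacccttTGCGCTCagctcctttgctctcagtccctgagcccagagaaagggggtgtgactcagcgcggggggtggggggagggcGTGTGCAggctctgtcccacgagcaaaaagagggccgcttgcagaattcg
Mt2 after the start: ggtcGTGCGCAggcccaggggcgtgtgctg

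Over the full window of 300 bases (250 before the start and 50 after it), Mt1 held 3 matches to the metal response core and Mt2 held 4. RefSeq's start of Mt1 may lie upstream of the start classically described for this gene, so the window may miss elements nearer to that start, and the counts of Mt1 and Mt2 refer to these annotated windows alone. Of 32851 promoter windows of the same length, 25.7% held at least 1 such match, 1.97% held at least 3 and 0.517% held at least 4. The relaxed steroid element matched once in Mt1, at GGACATGATGTTC, whose first base lies 94 bases before the annotated start, and 0 times in the window of Mt2. It matched in 0.475% of all windows. The antioxidant response core (TGACNNNGC, either strand) matched once in Mt2 and 0 times in Mt1, against 12.4% of windows with a match. The windows of Mt3 and Mt4 each held 1 metal response match. A match is a string of letters, not a shown binding site, and steroid elements further upstream were not searched.

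Mt1 read 13769, 13775 and 15569 in the aldosterone arrays of replications 1, 2 and 3, against 14759, 11970 and 12519 in the vehicle arrays (intensity after scaling all arrays to a common trimmed mean, in arbitrary units). The groups overlapped, because the vehicle array of replication 1 lay above the aldosterone arrays of replications 1 and 2. Mt1 averaged 14371 ± 1037 with aldosterone and 13083 ± 1477 with vehicle (SD, n = 3 each). Within the replications its log2 difference was -0.10, 0.20 and 0.31, so it was higher with aldosterone in 2 of 3.

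Mt2 read 12995, 12714 and 12356 with aldosterone, against 10743, 12387 and 10337 with vehicle. The groups overlapped by a narrow margin, the aldosterone array of replication 3 lying just below the vehicle array of replication 2. Mt2 averaged 12688 ± 320 with aldosterone and 11155 ± 1086 with vehicle (SD, n = 3 each), so its aldosterone arrays lay close together and its vehicle arrays did not. Its log2 difference was 0.27, 0.04 and 0.26 within the replications, and it was higher with aldosterone in 3 of 3. That direction in all 3 replications was shared by 10.5% of the 7453 tested probe sets, while 11.5% were lower in all 3. All aldosterone arrays lay above all vehicle arrays for 1.91% of probe sets, which did not include Mt1 or Mt2.

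**Figure D1:**
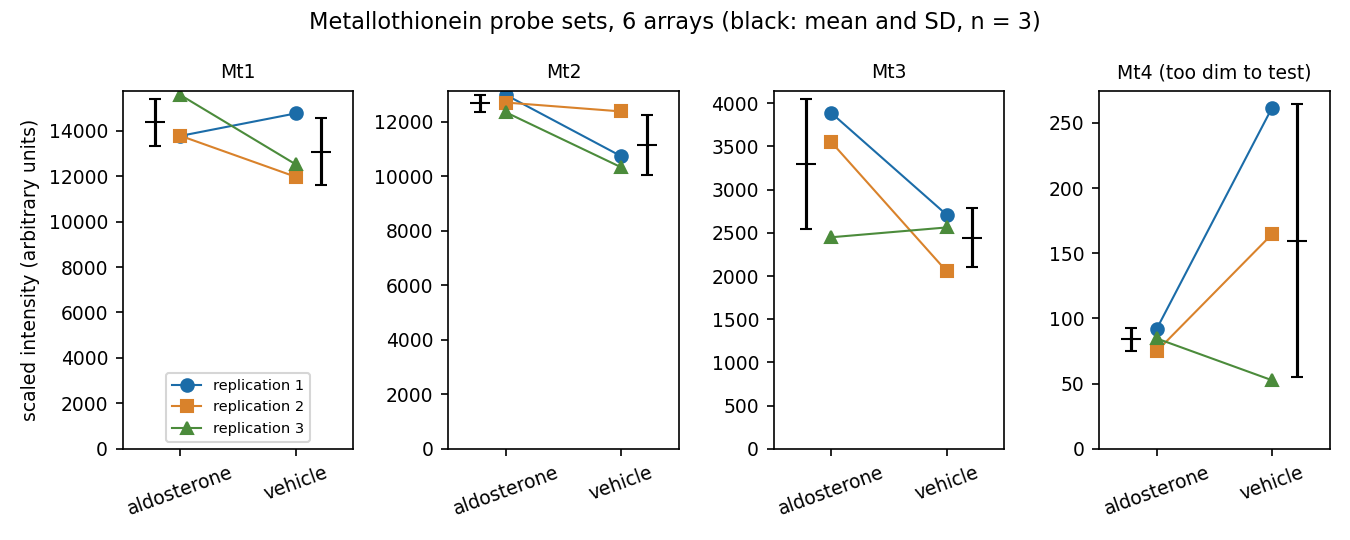
Scaled intensity (arbitrary units, vertical axes from 0) of the probe sets of Mt1, Mt2, Mt3 and Mt4 in the 3 aldosterone arrays and the 3 vehicle arrays; coloured lines join the arrays of a replication, and black marks give the mean and SD (n = 3). Mt2 was higher with aldosterone in 3 of 3 replications and Mt1 in 2 of 3, with overlapping groups in both.

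Neither gene passed the test. In limma's fit across all tested probe sets, on log2(intensity + 53.0), Mt1 was 1.10-fold higher (log2 difference 0.14, standard error 0.129), with a 95% interval of 0.90-fold to 1.35-fold (adjusted p = 0.9995). Mt2 was 1.14-fold higher (log2 difference 0.19, standard error 0.123), with an interval of 0.942-fold to 1.38-fold (adjusted p = 0.9995). The intervals contain no change and small shifts either way, and both end below 1.5-fold. The adjusted p was under 0.05 for 0% of all tested probe sets. The unadjusted p was under 0.05 for 0.966%, which included neither gene, at unadjusted p of 0.312 for Mt1 and 0.156 for Mt2. Exact permutation tests over the arrays (two-sided) gave p = 0.3 for Mt1 and p = 0.2 for Mt2, where 3 against 3 arrays cannot go below 0.1. They did not use the pairing of arrays within a replication.

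With the replication number as a block, which uses the pairing of the arrays, the standard errors were 0.0950 for Mt1 and 0.0851 for Mt2. The intervals were then 0.948-fold to 1.28-fold for Mt1 and 0.997-fold to 1.30-fold for Mt2. Neither gene was called in that fit either (adjusted p = 0.998 for both; 0% of probe sets called), and the unadjusted p of Mt2 was 0.0537, while 3.35% of probe sets were under 0.05.

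The steroid-responsive genes Sgk1, which encodes a kinase that keeps sodium channels at the cell surface, and Per1, a clock gene, were set beside the pair with their values already known. Sgk1 had the largest log2 difference of all 5640 tested genes, at 1.63, so it marks the upper end and not the usual size. Sgk1 read 3043, 2311 and 2637 with aldosterone, against 1059, 805 and 640 with vehicle, with no overlap between the groups. Its log2 difference exceeded that of Mt1 by 1.58, 1.26 and 1.64 within the replications, and that of Mt2 by 1.20, 1.43 and 1.70. The ratio of Per1 to Mt1 was higher with aldosterone by 1.12 on the log2 scale, and the ratio of Per1 to Mt2 by 1.07, in 3 of 3 replications each. These ratios are a description, with no test, since Sgk1 and Per1 were picked for their difference. Against all tested probe sets, the absolute log2 difference of Mt1 was larger than that of 61.9% and that of Mt2 larger than that of 73.6%, the median being 0.10. Fkbp5, another steroid-responsive gene and a chaperone of steroid receptors, averaged 3459 ± 438 with aldosterone and 3457 ± 225 with vehicle (SD, n = 3 each). Tsc22d3, which encodes the leucine zipper protein Gilz, was too dim to be tested, at 210 ± 177 with aldosterone and 302 ± 86.4 with vehicle.

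**Figure D2:**
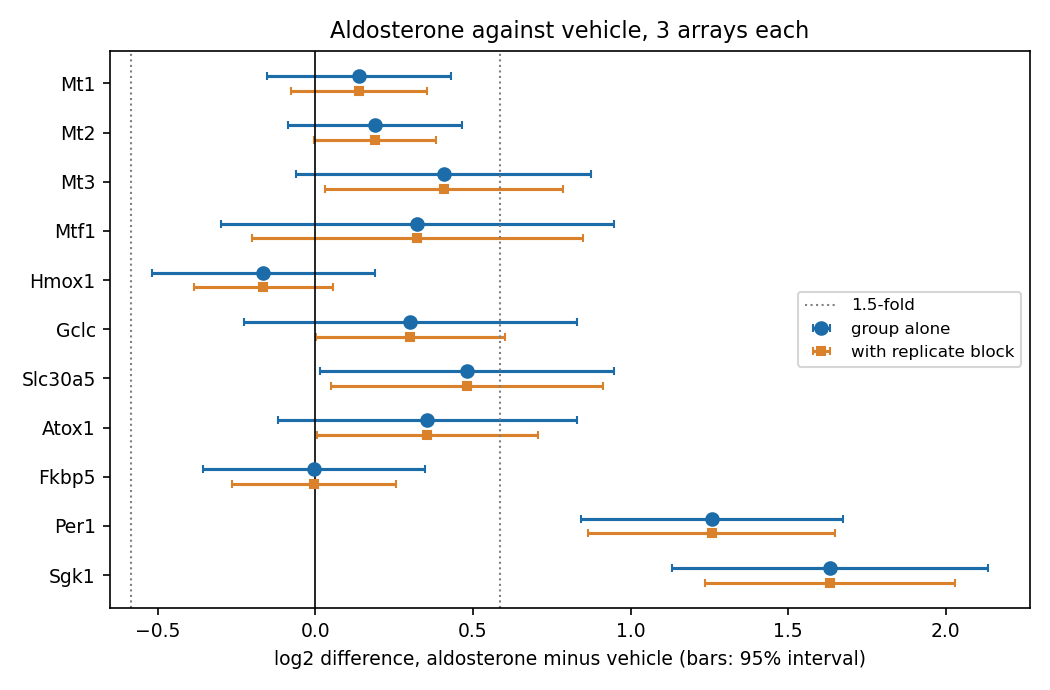
Log2 difference, aldosterone minus vehicle, with 95% intervals (bars) for Mt1, Mt2 and named genes; circles are the fit on group alone, squares the fit with the replicate block, and dotted lines mark 1.5-fold. The intervals of Mt1 and Mt2 end below 1.5-fold, while those of Sgk1 and Per1 lie wholly above it.

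Both genes gave steady readings in all 6 arrays. From the dimmest to the brightest array Mt1 spanned 1.30-fold and Mt2 1.26-fold. The SD of log2 intensity over the 6 arrays was 0.141 for Mt1 and 0.137 for Mt2, against a median of 0.237 over all tested probe sets, and 16.7% and 15.5% of these had a smaller SD. Bright probe sets vary less, however, and among the 1243 brightest (above the 90th percentile) the median was 0.168, with 35.6% below Mt1 and 32.7% below Mt2. The readings were brighter than 95.7% to 97.0% of the probe sets of each array for Mt1 and 94.7% to 96.3% for Mt2. They stood at 7.73% to 10.7% and 6.33% to 9.41% of the brightest probe set of the array, so neither was at the top of the scale. These positions describe readings and not amounts of transcript, since probe sets differ in how strongly they bind.

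**Figure D3:**
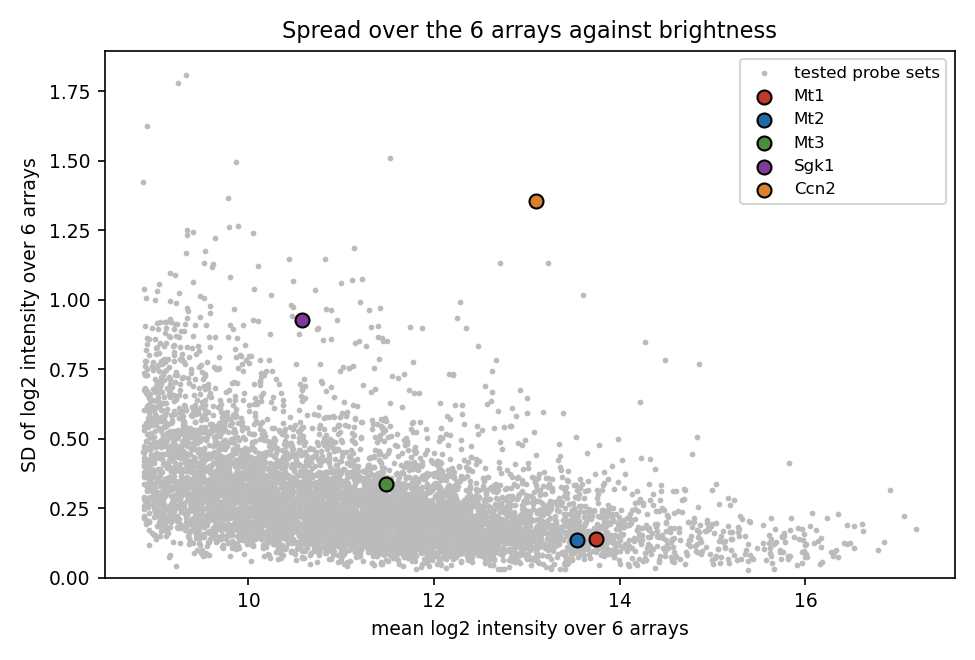
SD of log2 intensity over the 6 arrays (vertical axis) against mean log2 intensity (horizontal axis), with a grey point for each of the 7453 tested probe sets and coloured points for Mt1, Mt2, Mt3, Sgk1 and Ccn2. Mt1 and Mt2 lie among the bright probe sets of low spread, at an SD of 0.141 and 0.137.

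No difference between the runs of the experiment was called for either gene. Averaged over the arrays of a replication, Mt1 had log2 values of 13.80, 13.65 and 13.77 in replications 1, 2 and 3, and Mt2 had 13.53, 13.62 and 13.47. The replication means spanned 1.11-fold for both genes, Mt1 being highest in replication 1 and Mt2 in replication 2. Limma's F test on the replication gave adjusted p = 0.614 for Mt1 and 0.642 for Mt2, while it called 10.7% of all tested probe sets.

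The ratio of the pair varied between arrays. The reading of Mt1 over that of Mt2, a number that compares arrays and not the amounts of the transcripts, was 1.06, 1.08 and 1.26 with aldosterone, against 1.37, 0.966 and 1.21 with vehicle. The group difference of this ratio was -0.05 on the log2 scale (exact permutation test, two-sided, p = 0.9). Pearson's r between the log2 values of Mt1 and Mt2 was 0.112 over the 6 arrays, which share replications and a scaling step. The probe sequences are not in the files, and how far each probe set detects the other transcript was not tested.

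Genes with the pattern most like each metallothionein were ranked by Pearson's r over the 6 arrays, among 5639 other tested genes. For Mt1 they were Ttk, a kinase of the spindle checkpoint (0.978), Tmem159 (0.958), Selenok (0.947), Sys1 (0.946) and the tyrosine phosphatase gene Ptpn1 (0.941). The most opposite were Ywhab, which encodes a 14-3-3 protein (-0.981), Sltm (-0.975) and 1700097N02Rik (-0.973). For Mt2 the leaders were Fem1a (0.985), Rag1, the recombinase of lymphocytes (0.978), Ica1 (0.976), Igsf10 (0.970) and Ube4b (0.970), and the most opposite were Rnf19b (-0.990), Ubxn1 (-0.983) and Tmem222 (-0.957). No gene was on both lists, and 2 genes for Mt1 and 7 for Mt2 had an r above 0.95. With 6 arrays and this many genes, values of this size are a description of these arrays.

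Mt3 read 3887, 3551 and 2449 with aldosterone, against 2710, 2056 and 2563 with vehicle. It was higher in replications 1 and 2 and slightly lower in replication 3. The aldosterone array of replication 3 was on another scale as deposited, and whether this bears on Mt3 was not tested. Mt3 averaged 3296 ± 752 with aldosterone and 2443 ± 343 with vehicle (SD, n = 3 each), 1.33-fold with an interval of 0.959-fold to 1.83-fold (adjusted p = 0.9995). With the replicate block its unadjusted p was 0.0376 and its adjusted p 0.998. The log2 difference of Mt3 was 0.41 and depended on the arrays used, from 0.22 without replication 2 to 0.64 without replication 3, with 0.28 without the aldosterone array of replication 1 and 0.29 without the vehicle array of replication 2. Without the aldosterone array of replication 3 it was 0.60, while that of Mt1 was 0.08 in place of 0.14 and that of Mt2 was 0.21 in place of 0.19. Mt4 was too dim to be tested, at 92.1, 74.9 and 84.6 with aldosterone and 262, 165 and 52.6 with vehicle.

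Mtf1, the gene of the metal sensor, and the other tested genes listed with it showed no common direction. Mtf1 read 785, 748 and 994 with aldosterone, against 548, 558 and 924 with vehicle, and was higher in 3 of 3 replications (log2 difference 0.32, standard error 0.277, adjusted p = 0.9995). Slc30a1, the zinc exporter that MTF-1 induces together with Mt1, was too dim to be tested, at 267 ± 53.7 with aldosterone and 265 ± 61.4 with vehicle (SD, n = 3 each). Of 10 listed genes of metal response, a list without Mt1 and Mt2, 9 were on the array and 6 were tested. By sign 3 were higher and 3 lower, 0 were called, and their median log2 difference was -0.00047 beside -0.0021 over all 5640 tested genes. Gclc, which makes the first step of glutathione synthesis, had 0.30 and was higher in 3 of 3 replications, and the heme oxygenase gene Hmox1 had -0.17 and was lower in 3 of 3.

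Zinc transporters divided evenly, 10 being tested, of which 5 had a positive and 5 a negative difference (20 listed, 12 on the array, median 0.01, 0 called). Slc30a5, a zinc transporter of the secretory pathway, had the smallest p of them, at 1360 ± 244 with aldosterone and 949 ± 25.3 with vehicle (SD, n = 3 each), which was 0.48 higher on the log2 scale (standard error 0.208). Its other probe set went the other way, at -0.39 with a standard error of 0.276. Slc39a6 had -0.23 and Slc39a7 -0.20, both zinc importers and both lower in 2 of 3 replications. Between replications Slc39a1 differed 2.11-fold (adjusted p = 0.0251), while Slc30a9 (1.49-fold, 0.138) did not pass. The probe sets of Slc39a4 disagreed, the brighter one not passing (1.81-fold, 0.113) and the dimmer one passing (2.51-fold, 0.0395), and their log2 differences with aldosterone were 0.14 and -0.44.

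Copper genes counted 4 higher and 3 lower of 7 tested (11 listed, 8 on the array, median 0.04, 0 called). The copper chaperone Atox1 averaged 11159 ± 1217 with aldosterone and 8967 ± 2878 with vehicle (SD, n = 3 each), which was 0.35 higher on the log2 scale (standard error 0.211). Within replications 1, 2 and 3 the log2 difference of Atox1 was 0.28, -0.09 and 0.87. The copper pump Atp7a had 0.15 in this probe set and 0.01 in its dimmer one, and the mitochondrial copper chaperone Cox17 had -0.11. Ceruloplasmin, encoded by Cp, differed 1.43-fold between replications (adjusted p = 0.0111). Commd1 (1.57-fold, 0.137) and the superoxide dismutase chaperone Ccs (1.56-fold, 0.197) did not pass.

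Iron genes counted 4 higher and 2 lower of 6 tested (11 listed, 8 on the array, median 0.04, 0 called). The transferrin receptor gene Tfrc had -0.12, lower in 3 of 3 replications, but 0.21 in its dimmer probe set. Hmox2 had -0.12, and Fth1, the heavy chain of ferritin, had 0.06, with 0.20 in its dimmer probe set, which also differed 1.51-fold between replications (adjusted p = 0.0221). Between replications Ireb2 (1.69-fold, adjusted p = 0.0719), Tfrc (1.32-fold, 0.0844) and Hfe (1.46-fold, 0.195) did not pass.

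Glutathione and antioxidant genes, which share redox work with the metallothioneins, counted 6 higher and 11 lower of 17 tested (24 listed, 21 on the array, median -0.05, 0 called). Of the 17, 5 were lower in all 3 replications and 1 was higher, beside 660 lower and 592 higher of all 5640 tested genes. Srxn1, the sulfiredoxin gene, had -0.38 with a standard error of 0.236, and the glutathione reductase gene Gsr averaged 11560 ± 1653 with aldosterone and 13155 ± 723 with vehicle (SD, n = 3 each), for a log2 difference of -0.19. Between replications the superoxide dismutase gene Sod1 differed 1.47-fold (adjusted p = 0.0266), while Gstm1 (1.30-fold, 0.0544) and Nfe2l2 (1.35-fold, 0.0647) did not pass.

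Listed targets of corticosteroids stood at a median of 0.41, the sign being positive for 13 of 15 tested members and negative for 2 (20 listed, all on the array, 0 called). Higher in all 3 replications were 11 of the 15, beside 592 of all 5640 tested genes. The list was written with earlier results of these arrays known, so neither its direction nor its median is independent evidence. Mt1 and Mt2 were at 0.14 and 0.19, and that median is no measure of the usual size of a steroid response.

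**Figure D4:**
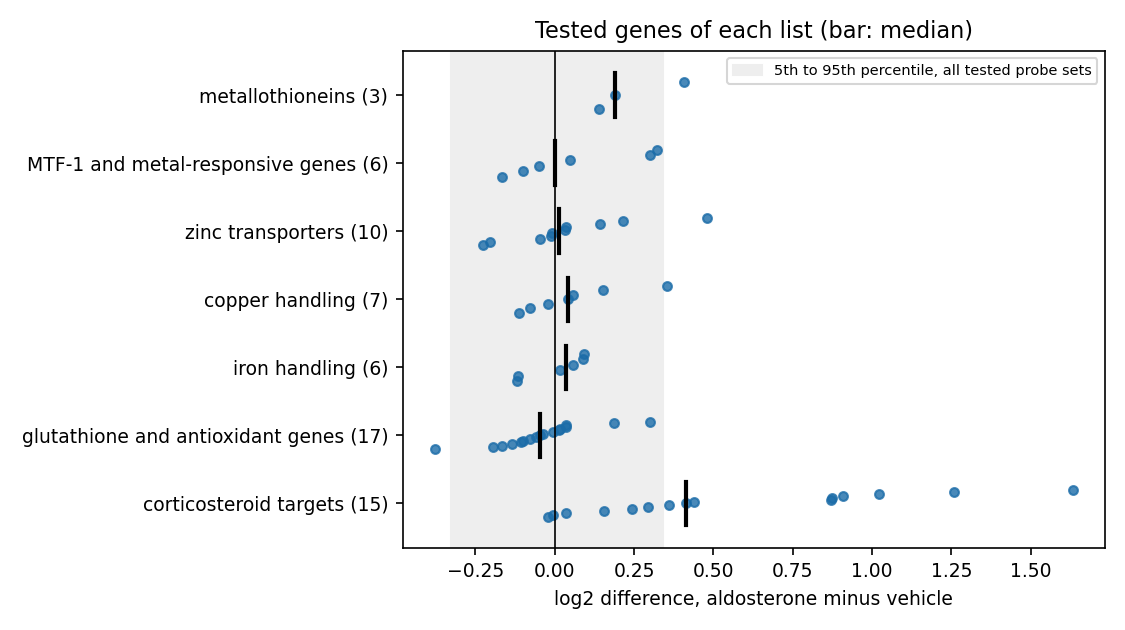
Log2 difference, aldosterone minus vehicle, of each tested gene (point) by list, with the number tested in parentheses and the median as a bar; the grey band holds the 5th to 95th percentile of all tested probe sets, from -0.33 to 0.34. The metal, copper, iron and antioxidant lists centre near 0, and the corticosteroid targets at 0.41. The corticosteroid list was written with earlier results of these arrays known.

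Epithelial markers read from bright to dim. Krt8, an epithelial keratin, averaged 17461 ± 1623 with aldosterone and 19391 ± 3832 with vehicle, and Cdh16, the kidney-specific cadherin, 14352 ± 522 and 14892 ± 1665 (SD, n = 3 each). The epithelial markers Cdh1 (2445 ± 531 and 2611 ± 917) and Epcam (1022 ± 293 and 981 ± 401) read lower. Of 16 markers of collecting duct and epithelium 12 were on the array and 8 were bright enough to be tested, but the principal cell markers Aqp2, Aqp4, Avpr2 and Hsd11b2 were not. Tested members numbered 2 of 7 for proximal tubule, 1 of 2 for intercalated cells, 3 of 8 for fibroblasts, 1 of 7 for endothelium and 3 of 7 for leukocytes on the array, 0 of them called. Some read brighter than Cdh1 and Epcam: Cd14 of the leukocyte list (5199 ± 855 with aldosterone and 5907 ± 1141 with vehicle), Car2 of the intercalated list (5517 ± 1020 and 5642 ± 503) and Col1a2 of the fibroblast list (4126 ± 334 and 4590 ± 1578). The other tested members of these lists averaged below Cdh1. The aldosterone array of replication 3 was deposited on a lower scale (median 30.9, against 907 to 1003 elsewhere) and was multiplied by 24.2. Its values were stored in steps of 0.1, a step worth 0.0155% of its reading of Mt1 and 0.0196% of that of Mt2.

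**Figure D5:**
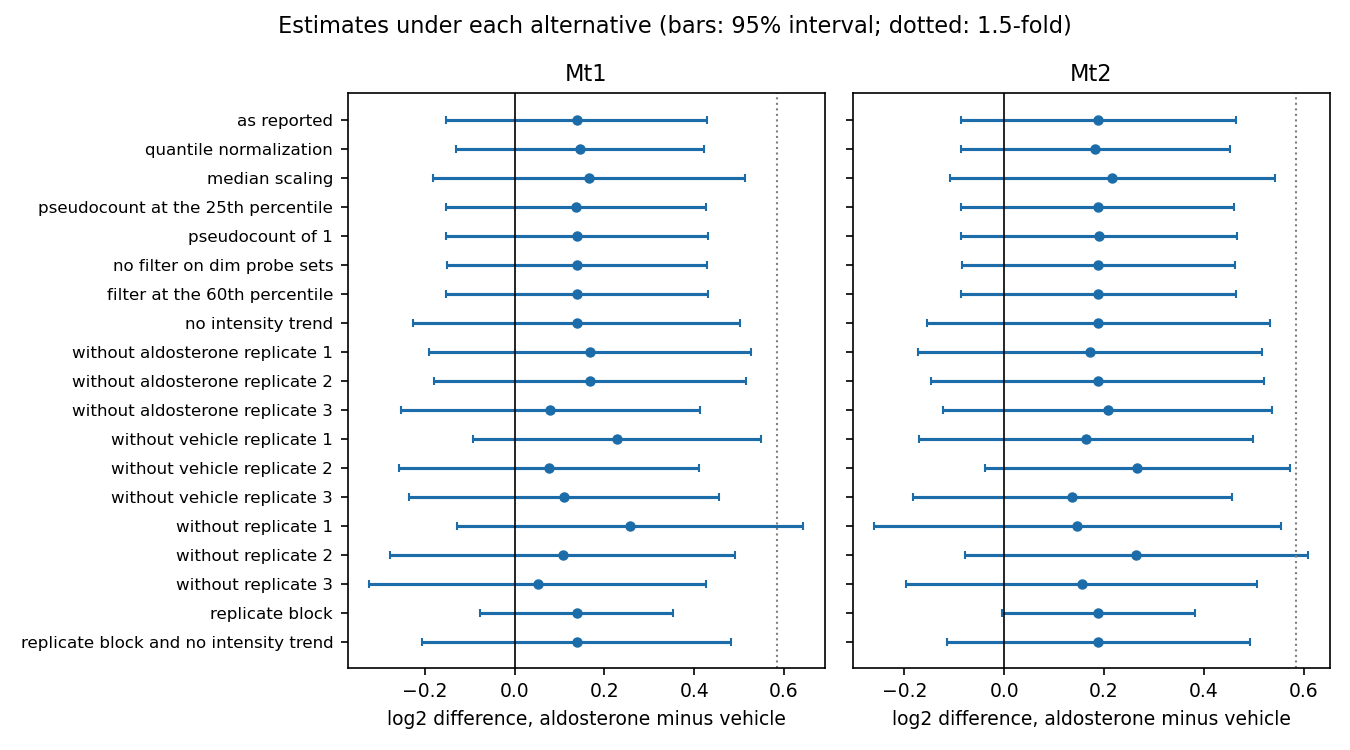
Log2 difference of Mt1 (left) and Mt2 (right), aldosterone minus vehicle, with 95% intervals, as reported (top) and under each of 18 alternatives; the dotted line marks 1.5-fold. All estimates are above 0, all intervals contain 0, and the intervals reach past 1.5-fold only without replication 1 for Mt1 and without replication 2 for Mt2.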

How the data were processed

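The authors deposited 1 linear intensity for every probe set on every array, per the file headers and from the values; the sources used here name no array software. Trimmed means (2% at each end) differed 28.8-fold between arrays, so each array was scaled to their mean of 2090. Values were converted to log2(intensity + 53.0), the 10th percentile of scaled values, which understates changes of dim probe sets, and probe sets above the 40th percentile of mean log2 value (8.87) were tested, 7453 of 12422. Symbols came from the array annotation and were compared with RefSeq through Entrez identifiers, which changed 0; 396 probe sets had several symbols and 1193 none. For a gene with several probe sets the brightest was used.

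The treatments were compared in limma 3.58.1 (R 4.3.3; lmFit and eBayes with trend, two-sided, Benjamini-Hochberg over all tested probe sets), on group alone. The script was tested on simulated data. Exact tests used scipy 1.17.1 and left the pairing within replications out. The replication number was also entered as a block: the labels describe each replication as 1 run of the experiment, and deviations of same-numbered arrays correlated at 0.377, 0.387 and 0.471. Precision is limited by 3 arrays a group.

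The members, lists and tests were chosen with earlier results of these data known. Named genes were Mt1 to Mt4, Mtf1, Slc30a1, Sgk1, Per1, Fkbp5, Tsc22d3, the 3 of smallest p per comparison in the zinc, copper, iron and antioxidant lists, and the 5 most and 3 least alike in pattern; Hmox1, the cell markers and the neighbouring genes were named outside that rule. Alternatives covered scaling, pseudocount, filter, variance trend, the block, and leaving out arrays or replications.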

Additional observations from a re-analysis of the deposited data

How the results depend on the processing

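Mt1 and Mt2 kept a positive log2 difference and an adjusted p above 0.05 under all 18 alternatives run. Leaving out an array or a replication gave 0.05 to 0.26 for Mt1 and 0.14 to 0.27 for Mt2, and the other settings gave 0.14 to 0.17 and 0.18 to 0.22. The upper end of the interval passed 1.5-fold (0.58 on the log2 scale) only at 0.64 for Mt1 without replication 1 and 0.61 for Mt2 without replication 2. With the replicate block the differences were 0.14 and 0.19 as without it, and the block changed no call. The block without the intensity trend was added after the data were seen.

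Differences between replications lay between 1.03-fold and 1.21-fold for Mt1 and between 1.06-fold and 1.21-fold for Mt2 over 14 alternatives, none called. The count of probe sets called between replications was 798 and fell to 71 without the intensity trend. It was 336 to 704 with an array left out, where fewer samples were fitted, and 583 with treatment as a covariate. The count called between aldosterone and vehicle, 0, was 0 to 1 with arrays or replications left out and 1 without vehicle replicate 2. At an unadjusted p under 0.05 it was 72 of 7453 tested probe sets. It was 262 of 12422 without a filter and 38 of 4969 with the filter at the 60th percentile. Of 7453, it was 250 with the replicate block and 279 with the block and no trend. The cause of these changes was not tested.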

Other observations

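Genes next to the metallothionein cluster were read as well, chosen by their place within 4 protein-coding genes on either side in RefSeq's order. Herpud1, an endoplasmic reticulum stress gene, averaged 4976 ± 369 with aldosterone and 3811 ± 376 with vehicle (SD, n = 3 each), which was 0.38 higher on the log2 scale (standard error 0.146), and it was higher in 3 of 3 replications (limma's adjusted p = 0.9995). Slc12a3, the sodium chloride cotransporter of the distal convoluted tubule and a known aldosterone target, was too dim to be tested, at 136 ± 89.4 with aldosterone and 128 ± 29.8 with vehicle. Nup93, a nuclear pore gene beside Mt1, had a log2 difference of 0.03, and Nudt21, a factor of messenger RNA cleavage, had 0.05.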
